A study of Homo sapiens with 24 samples.

Results

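The arrays collected at 48 h after replating were compared with those collected at 24 h, which is the second day of a culture of human hepatocyte-like cells put down at low density. The comparison takes 6 of the 24 arrays of the series, 3 at each time, chosen by the time in their titles. It starts from every probe set that is not a control and tests 1 for each named gene that passed a signal filter. The cells are HepaRG, a human liver progenitor line that forms hepatocyte-like and bile-duct-like cells in dense culture. In both groups the cultures had been grown for 2 weeks in a medium with serum, insulin and hydrocortisone and then for 2 weeks in the same medium with DMSO, which favours the hepatocyte-like state. The hepatocyte-like cells were then lifted off with mild trypsin and seeded sparsely, a step the labels describe as inducing reprogramming. The 24 h and 48 h groups share all of this and differ, per the labels, in the time of collection. The model is 1 cell line, and the labels state neither the medium after replating nor whether replicates came from separate cultures. The p-values therefore speak only of how far these samples vary, and that variation may be technical.

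Hepatocytes carry the body's cytochrome P450 drug oxidases, make most plasma proteins, and run the urea cycle and bile acid synthesis. Cells taken from dense culture to plastic at low density usually lose these functions while they enter the cell cycle. Sterol synthesis and the protein-folding machinery of the endoplasmic reticulum (ER) are each run by a feedback loop: sterol-sensing transcription factors raise the synthesis enzymes when membrane sterol is low, and the unfolded protein response raises ER chaperones when folding is loaded.

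Defining markers of hepatocytes were measured on all 6 arrays: 8 of them had a probe set, and none lay below an array's own 40th percentile on all 6. Their summed signal was 169934 to 210130 at 24 h and 120132 to 134067 at 48 h, so the ranges did not overlap. For 6 bile duct markers the summed signal was 13360 to 19573 at 24 h and 16086 to 20463 at 48 h, ranges that overlap. Most of it was KRT19, at 11501.1 to 17121.0 and then 13762.9 to 18096.1. Of these markers 4 were tested, and none was called changed. For 9 stellate cell and fibroblast markers the ranges were 1628 to 2108 and 1679 to 2426. Leukocyte markers summed to 451 to 589 at 24 h and 336 to 541 at 48 h, with 5 of 9 below the 40th percentile on all 6 arrays. Endothelial markers, 4 of 7 of them below it on all 6 arrays, summed to 236 to 276 and 117 to 228, ranges that did not overlap. The 2 erythroid markers summed to 46 to 53 and 33 to 114. The part of the other cell types in the results was not tested. The median of an array lay at 114.4 ± 10.8 signal units for 24 h and 109.9 ± 4.1 for 48 h (mean ± SD of 3 arrays; exact permutation test, two-sided p = 0.6, where 0.1 is the smallest p possible). The ratio of 3' to 5' signal of the ACTB control probe sets, higher in degraded RNA, ran from 1.24 to 1.52 at 24 h and from 1.02 to 1.27 at 48 h (exact permutation p = 0.2). At 0 h, which later comparisons use, this ratio was 2.03, 6.91 and 2.56, against 1.16, 1.57 and 1.53 at 16 h. Its part in the results was not tested. Across the genes tested, 24 h replicate 3 correlated best with a 48 h array, while each of the other 5 arrays correlated best with an array of its own time.

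Of 9966 genes tested, 87 (0.873%) were called lower at 48 h than at 24 h and 32 (0.321%) were called higher, 119 (1.19%) in all. A gene passed the test at an adjusted p under 0.05 (limma, Benjamini-Hochberg over all genes tested), and it was called if it also differed by at least 2-fold. The test alone was passed by 209 lower genes (2.1%) and 135 higher genes (1.35%). These shares of all genes are the background for the list counts that follow. Differences are of log2(signal + 18), 48 h minus 24 h, so they understate the change of dim genes. They ran from -3.53 to 2.33 with a median over all genes of -0.022, and 13 called genes fell and 3 rose at least 4-fold. The falls were thus more numerous and deeper than the rises. Among the 87 called lower genes, 86 had all 3 signals at 48 h below all 3 at 24 h, against 10.7% of all genes, and all 32 called higher genes had them above, against 8.87% of all genes. Calls and separation rest on the same signals, so the separation is not independent support for the calls. Without 24 h replicate 3, 52 genes were called higher instead of 32, and 97 lower instead of 87. Smaller differences were less secure: of 83 genes from the lists and named sets that passed the test without being called, 39 passed it in every fit with 1 array left out. In these bulk samples, fewer cells of a type and less RNA per cell cannot be told apart.

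**Figure D1:**
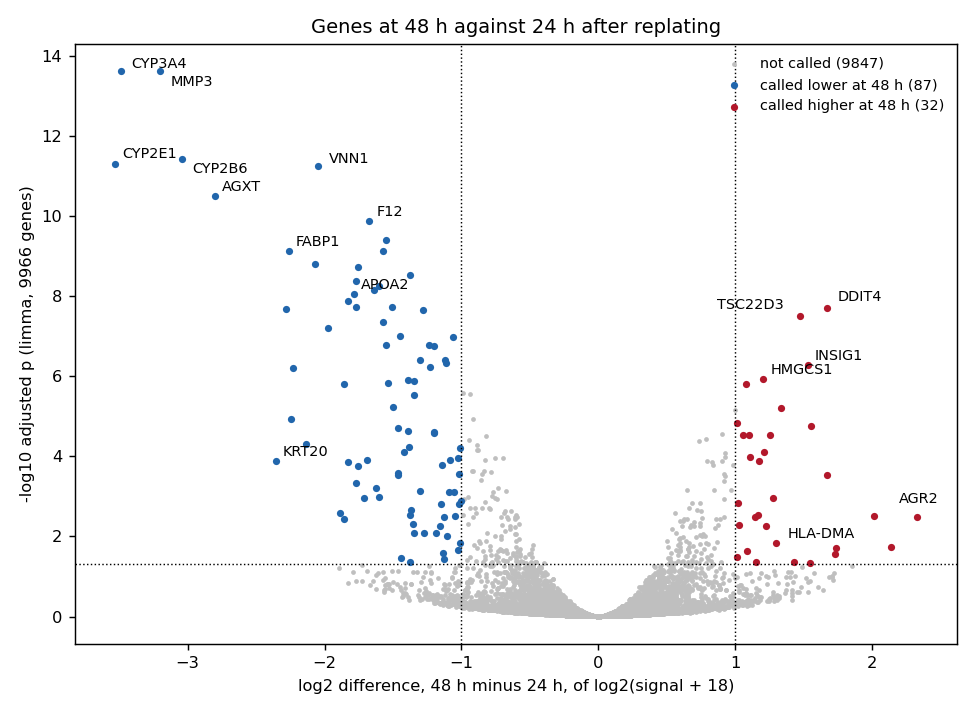
Each point is 1 of 9966 genes; the horizontal axis is the log2 difference, 48 h minus 24 h, and the vertical axis is -log10 of the limma adjusted p. Dotted lines mark 2-fold and an adjusted p of 0.05; the 87 called lower genes (blue) reach further from 0 than the 32 called higher genes (red).

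Several cytochrome P450 enzymes were among the genes that fell most. CYP2E1, which oxidizes ethanol and small solvents, had signals of 529.8, 630.4 and 668.6 at 24 h and of 8.89, 35.7 and 92.1 at 48 h. The groups did not overlap, and the difference was -3.53 ± 0.24 (SE; adjusted p = 4.79e-12). Other probe sets of CYP2E1 gave smaller falls, of -2.1 and -2.39. At the start of the culture, at 0 h, its mean signal had been 9348, so the second day took an already low transcript close to the floor of the array. CYP3A4, the main drug oxidase of adult liver, read 1919, 1964 and 3606 at 24 h and 154.7, 156 and 308.8 at 48 h. It fell by 3.49 ± 0.20 (adjusted p = 2.37e-14), and 24 h replicate 3 was the highest. Its probe set may cross-hybridize with its close relatives, and its other probe sets gave -1.39, -4.59 and -1.06. CYP2B6, an oxidase induced by phenobarbital-like drugs, read 178.3, 262.7 and 238 at 24 h but only 9.68, 12.4 and 12.0 at 48 h. It fell by 3.04 ± 0.21 (adjusted p = 3.69e-12), whereas its other probe set gave -0.25, so the 2 disagree. At 48 h all its signals were below the 18 units added before the logarithm, and values this low have no dependable order.

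Of 44 tested drug-metabolizing enzymes, 8 were called lower (18.2%, against 0.873% of all genes) and 1 higher (2.27%, against 0.321%). The test alone was passed by 11 and 3. Their median difference was -0.32, against -0.022 for all genes. The other called falls were those of CYP1A1 (-2.24), which oxidizes aromatic hydrocarbons, CYP4F2 (-2.07, a probe set open to cross-hybridization), a fatty acid and vitamin hydroxylase, and CYP2A6 (-1.98), the nicotine oxidase. The remaining called members were GSTA3 (-1.77), a glutathione transferase, and ALDH2 (-1.12), the mitochondrial acetaldehyde dehydrogenase, which stopped short of 2-fold (-0.96) without 24 h replicate 3. CYP1A1 stood apart in its course from the other P450 enzymes of this list that were called lower. Its mean signal went from 185.2 at 0 h to 354.3 ± 77.1 at 24 h, and then to 68.5 ± 42.7 at 48 h (SD over 3 arrays). It was thus lower at 48 h than on the day before but had not been lost earlier. ALDH3A1, an aldehyde dehydrogenase of stomach, cornea and many tumours, went the other way. It read 345.2, 322.9 and 292.2 at 24 h and 1019, 1136 and 1020 at 48 h. The rise was 1.67 ± 0.29 (adjusted p = 0.000289), with no overlap. ALDH1A1 (0.67), which makes retinoic acid, and SULT1A1 (0.66, open to cross-hybridization), a sulfotransferase, also passed the test upward.

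Other liver metabolism genes fell beside them. AGXT, which detoxifies glyoxylate in peroxisomes, read 1127, 832.6 and 1825 at 24 h and 135, 122 and 230.2 at 48 h. The difference was -2.80 ± 0.21 (adjusted p = 3.15e-11) with no overlap, and its other probe sets gave -2.63 and 0.30. FABP1, the fatty acid carrier of hepatocyte cytosol, read 795.9, 865 and 833.1 at 24 h and 114.9, 124.8 and 274.1 at 48 h. It fell by 2.26 ± 0.20 (adjusted p = 7.53e-10), from a 0 h mean of 24340. GNMT (-2.28), a regulator of the methyl donor supply, OTC (-1.62), a urea cycle enzyme, and BDH1 (-1.60), which interconverts ketone bodies, were also called lower. Most members of their pathways did not pass the test: of 35 amino acid and urea cycle enzymes 2 fell and GOT1, an aspartate transaminase, rose (0.79). Of 26 fatty acid oxidation and ketone genes BDH1 was the 1 that passed. Of 19 bile acid genes FABP1 and the exporter ABCC3 (-0.83) passed, both lower, and of 17 gluconeogenesis genes none did. The medians of these lists were 0.08, -0.01, -0.36 and -0.01.

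**Figure D2:**
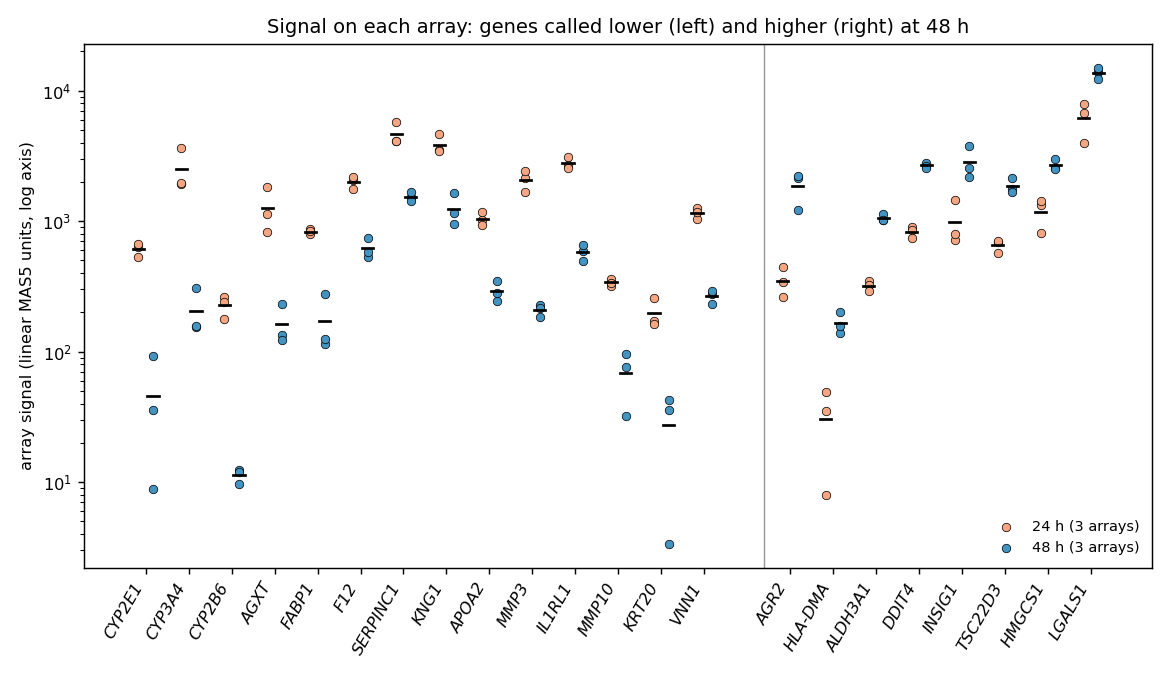
Signal of 22 called genes on each of the 3 arrays at 24 h (orange) and 48 h (blue), on a log axis in linear MAS5 units, with black bars at the means. For each gene the 6 points form 2 groups that do not overlap, and CYP2B6 reads 9.68 to 12.4 at 48 h.

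The sequences before 3 of the falling genes are shown because they hold short elements known from liver promoters. They come from RefSeq (GRCh38.p14), from 250 bases before to 50 bases after the annotated start, and capitals mark the element. CYP2B6 lies on the plus strand of chr19:40991032-40991331 and holds CAAAGTCCA, a nuclear receptor element of the DR1 type, on the minus strand, beginning 231 bases before the start. SERPIND1, which encodes the plasma protease inhibitor heparin cofactor, lies on the plus strand of chr22:20773863-20774162, with CAAAGTTCA, an element of the same type, 43 bases before the start. FABP1 lies on the minus strand of chr2:88128013-88128312, with GTTAAT, part of the element that hepatocyte nuclear factor 1 binds, 108 bases before the start.
CYP2B6: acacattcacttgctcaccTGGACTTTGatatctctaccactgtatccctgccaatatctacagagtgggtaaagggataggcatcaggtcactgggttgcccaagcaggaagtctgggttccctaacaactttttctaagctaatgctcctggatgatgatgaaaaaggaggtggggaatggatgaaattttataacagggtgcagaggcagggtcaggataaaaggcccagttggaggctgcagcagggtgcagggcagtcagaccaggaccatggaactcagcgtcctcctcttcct
SERPIND1: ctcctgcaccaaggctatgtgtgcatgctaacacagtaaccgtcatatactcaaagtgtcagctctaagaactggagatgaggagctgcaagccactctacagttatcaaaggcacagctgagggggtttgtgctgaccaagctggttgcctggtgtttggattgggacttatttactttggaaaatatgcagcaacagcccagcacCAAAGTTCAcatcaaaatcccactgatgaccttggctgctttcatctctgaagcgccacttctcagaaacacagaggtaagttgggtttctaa
FABP1: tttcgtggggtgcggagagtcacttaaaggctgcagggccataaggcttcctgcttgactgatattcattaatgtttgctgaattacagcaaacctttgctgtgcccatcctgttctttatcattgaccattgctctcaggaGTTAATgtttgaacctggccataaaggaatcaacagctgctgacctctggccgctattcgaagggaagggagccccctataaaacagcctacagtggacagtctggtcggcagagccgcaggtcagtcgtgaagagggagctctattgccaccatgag

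Such promoters were at hand for 8116 tested genes, 68 of them called lower and 21 called higher. On either strand, CAAAGTCCA or CAAAGTTCA stood in 5 of the 68 lower genes (7.35%), in 0 of the 21 higher genes and in 0.567% of all 8116. The 5 were BDH1, SERPIND1, CYP2A6, CYP2A7 and CYP2B6, and the last 3 are neighbouring members of a family with related sequences. GTTAAT stood in 7 lower promoters (10.3%), those of ANXA10, CYP3A7-CYP3A51P, FABP1, IGF1, KRT20, PLG and SERPINA10, and in 4.08% of all. TTGCNNAA, the C/EBP element, stood in 11.8% of the lower, 28.6% of the higher and 7.69% of all promoters. TGACTCA, the AP-1 element, stood in 2.94% of the lower, 0 of the higher and 3.3% of all, and TCACCCCAC, a sterol regulatory element, in 0 of both and 0.394% of all. TTTGAA, the short element of cell cycle promoters, stood in 22.1% of the lower, 4.76% of the higher and 10.2% of all. The full palindromic element of hepatocyte nuclear factor 1 was found in no promoter, and CAAAGGTCA (0.234% of all) and the NF-kappaB element (0.172% of all) in none of the called genes. Base composition moved with these counts: median GC content was 54.0% in the lower, 61.0% in the higher and 64.7% in all promoters. Its part in the counts was not tested. The 10 motifs were picked after the values were seen, and a match describes letters in a window, not a bound site.

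Plasma protein genes fell as a group. Of 47 tested genes for secreted plasma proteins, 27 passed the test lower and 0 higher, and 13 were called lower (27.7%, against 0.873% of all genes). A negative difference was found for 45, with a median of -0.75 against -0.022 for all genes. Several coagulation factors and inhibitors were among the called members. F12, the contact-phase factor, read 1769, 2069 and 2167 at 24 h and 534.2, 579.6 and 745.3 at 48 h, without overlap. It fell by 1.67 ± 0.13 (adjusted p = 1.32e-10). SERPINC1, antithrombin, read 4126, 4124 and 5717 and then 1524, 1436 and 1661, again without overlap, a difference of -1.57 ± 0.14 (adjusted p = 7.53e-10). KNG1, the kininogen that carries bradykinin, read 3487, 3437 and 4632 and then 948.1, 1150 and 1644. It fell by 1.64 ± 0.16 (adjusted p = 7.06e-09). SERPIND1 (-1.77), F9 (-1.55), HRG (-1.55) and PLG (-1.46), which encode heparin cofactor, factor IX, histidine-rich glycoprotein and plasminogen, were called as well.

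Apolipoproteins and transport proteins fell too. APOA2, of high density lipoprotein, read 1025, 1174 and 933.4 at 24 h and 243.2, 350.1 and 283.5 at 48 h, with no overlap. The difference was -1.78 ± 0.17 (adjusted p = 8.85e-09). APOA1 (-1.06, open to cross-hybridization), APOA4 (-1.35) and TF (-1.11), the iron carrier transferrin, were called. C8A (-1.30), a part of the membrane attack complex, and ITIH1 (-1.13), which binds hyaluronan, were called too. Leaving out 1 array ended the 2-fold call for TF (-0.98 without 24 h replicate 2), C8A (-0.89 without 48 h replicate 1) and ITIH1 (-0.99 without 24 h or 48 h replicate 2), which still passed the test, while APOA4 no longer passed it without 48 h replicate 2 (-0.94, adjusted p = 0.13). Members that fell by less than 2-fold included APOH (-0.99), F2 (-0.91), prothrombin, AGT (-0.82), the angiotensin precursor, TTR (-0.75), which carries thyroid hormone, APOE (-0.62) and RBP4 (-0.48), which carries retinol. Some bright liver secretory transcripts did not pass. ALB, albumin, read 43590, 49360 and 36160 at 24 h and 31810, 33120 and 33990 at 48 h, a difference of -0.37 ± 0.14 that did not pass the test (adjusted p = 0.163). Its other probe sets disagreed, at 0.34 and -1.02. SERPINA1 (-0.39, adjusted p = 0.189) and FGB (-0.25, adjusted p = 0.391) did not pass either, and for FGB the groups overlapped. Among 27 acute phase and IL-6 family genes, 7 passed lower and 0 higher. CRP (-1.47), ITIH4 (-1.35) and HPX (-1.20), the heme carrier hemopexin, were called (HPX was at -0.96 without 48 h replicate 3), while HP (-0.78), A2M (-0.72), SERPINA3 (-0.60) and ORM1 (-0.58) passed without reaching 2-fold.

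Few hepatocyte transcription factors passed the test. Of 25 tested, CEBPB rose (0.56, adjusted p = 0.00253) and NR2F1, an orphan nuclear receptor, fell (-0.89, adjusted p = 0.0419), and the median was 0.08. CEBPA, which holds hepatocytes in their mature state, read 129.2, 65.9 and 84.7 at 24 h and 70.3, 114.7 and 137.9 at 48 h, overlapping groups with a difference of 0.18 ± 0.35 (adjusted p = 0.9). In the separate comparison of 16 h with 0 h, 14 of the 25 factors had been called lower, against 11.9% of all genes.

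A different set of falling genes had been low at the start and high during the day before. MMP3, stromelysin, a matrix-degrading protease, had a mean of 164.6 at 0 h and 4490 at 16 h. It read 2149, 2420 and 1683 at 24 h and 226.8, 214.5 and 185.4 at 48 h, with no overlap. The difference was -3.20 ± 0.18 (adjusted p = 2.37e-14). IL1RL1, the receptor for an interleukin released by damaged cells, read 2706, 2545 and 3081 at 24 h and 591, 493.1 and 659.3 at 48 h, from 56.7 at 0 h and 5642 at 16 h. It fell by 2.23 ± 0.27 (adjusted p = 6.31e-07), while its other probe set gave 0.00. MMP10 (-2.14), a protease related to MMP3, fell alongside it, and TNC (-1.37), the injury-associated matrix protein tenascin, fell by 1 probe set while its other gave 0.83. AKAP12, a scaffold for protein kinase A chosen here after its values were seen, fell by 1.39 ± 0.17 (adjusted p = 1.21e-06). FST (-1.02), which binds activin, was called lower as well, but its other probe set gave -0.55, and it stopped short of 2-fold after median centring (-0.97). Of 29 matrix enzymes and inhibitors, MMP3, MMP10 and the inhibitor TIMP1 (-0.84) passed the test, all lower, with a list median of -0.13. Of 42 matrix glycoproteins and collagens, TNC fell and COL4A5, a basement membrane collagen, rose (0.85).

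**Figure D3:**
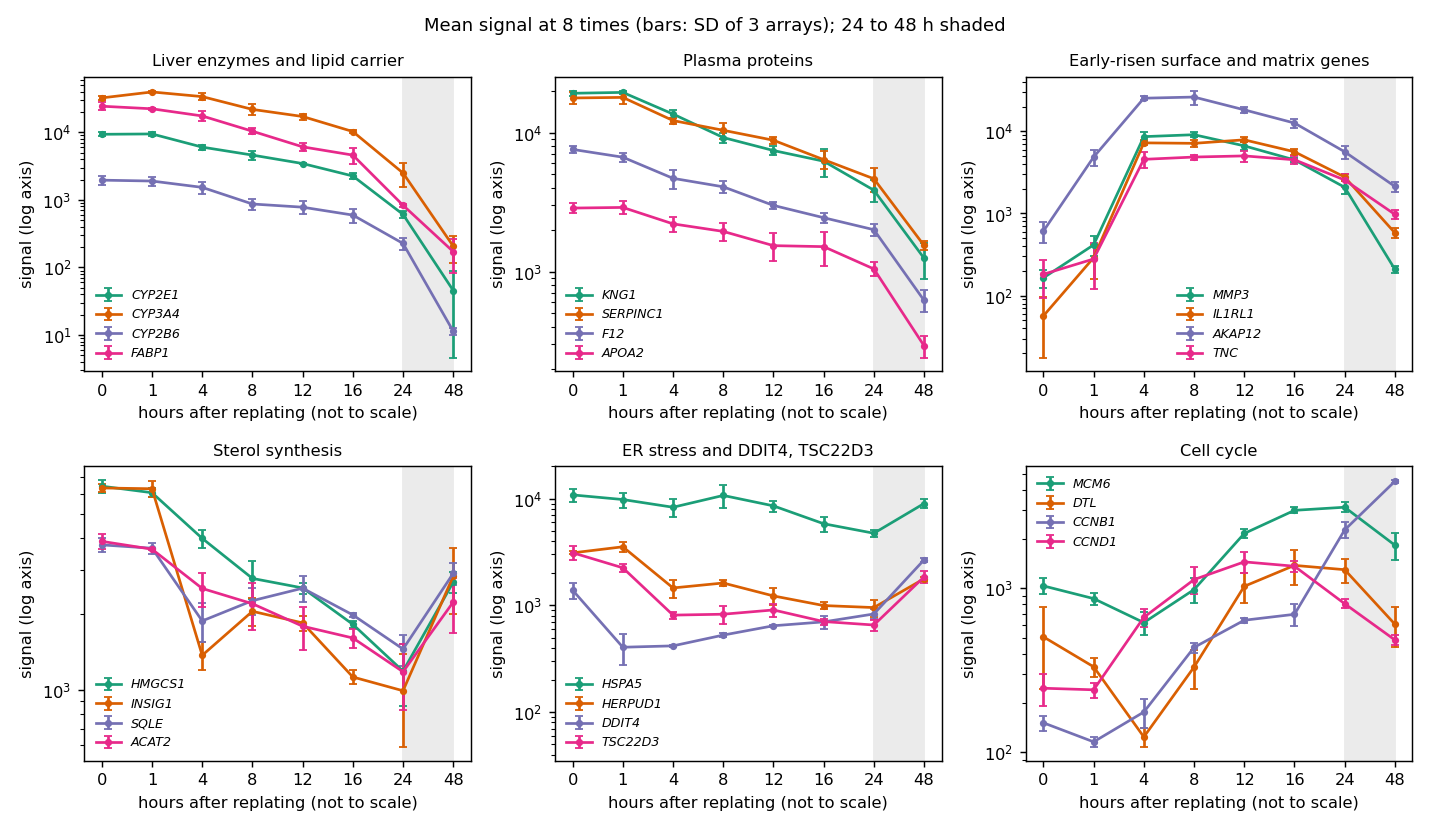
Mean signal (log axis) of 24 genes at the 8 times, with bars of 1 SD over 3 arrays and the 24 h to 48 h step shaded; the times are evenly spaced and not to scale, and the lower bar of CYP2E1 at 48 h is cut short to fit a log axis. Liver genes fall along the course, early-risen genes peak and fall, and sterol synthesis genes turn upward after 24 h.

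Some keratin and S100 genes fell. Of 19 tested, 5 passed lower and 0 higher, with a median of -0.42. KRT20, an intestinal-type keratin, read 172, 162 and 255.5 at 24 h and 42.8, 3.36 and 35.7 at 48 h, without overlap, a difference of -2.36 ± 0.39 (adjusted p = 0.000131). S100A8 (-1.38), a calprotectin subunit, and S100A14 (-1.15) were called, and S100A3 (-0.94) passed the test. With the probe sets of a gene averaged, S100A8 was at -0.88 and did not pass (adjusted p = 0.15). KRT23 (-1.38, adjusted p = 0.0442) was called too, but its call was lost in 12 of the alternatives tried. The count of 5 became 3 without 24 h replicate 1, 2 or 3, or without 48 h replicate 2. S100A2, chosen after its values were seen, kept a signal of 48280, 56090 and 46330 at 24 h and 45780, 42500 and 52290 at 48 h, from a mean of 216.1 at 0 h. The groups overlapped (-0.10 ± 0.14, adjusted p = 0.844; 0.12 after quantile normalization). KRT19, a keratin of bile duct and progenitor cells, read 15980, 11500 and 17120 and then 16580, 13760 and 18100, also overlapping.

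Some progenitor, cytoskeletal and growth factor genes fell, most of them by less than 2-fold. CD44, a hyaluronan receptor, fell by 0.92 ± 0.16 (adjusted p = 0.000233), and each of its 6 other probe sets was negative. TNFRSF12A, the receptor of TWEAK, fell by 0.61 (adjusted p = 0.0184). SOX9 (-0.35, adjusted p = 0.375), a duct and progenitor factor, and AFP (-0.32, adjusted p = 0.69), a fetal protein of the albumin family, did not pass. Of 49 actin cytoskeleton and adhesion genes, 7 fell and 0 rose, with a median of -0.28. They were MYH9 (-0.98), a non-muscle myosin, LIMA1 (-0.83), PDLIM5 (-0.73), ITGAV (-0.67), an integrin subunit, CNN2 (-0.67, open to cross-hybridization), MSN (-0.61) and TPM1 (-0.61). That count of 7 was 2 without 24 h replicate 1, 3 without 24 h replicate 2, 4 without 48 h replicate 1 and 4 after median centring. The growth factors IGF1 (-1.69) and MST1 (-1.20), both open to cross-hybridization, were called lower. Of 19 cytokines and chemokines none was called, and CCL2, a monocyte attractant, fell by 0.86 (adjusted p = 0.0148).

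Few cell cycle genes passed the test. CCNB1, the mitotic cyclin, read 2492, 1997 and 2336 at 24 h and 4484, 4604 and 4421 at 48 h. The groups did not overlap, and the rise was 0.99 ± 0.17 (adjusted p = 0.000167), just short of 2-fold. It was the 1 gene of 63 G2/M and mitotic genes to pass the test, and the list median was 0.08. DTL, a subunit of the ligase that clears licensing factors in S phase, read 1153, 1195 and 1554 and then 443.8, 778.9 and 591.7, a difference of -1.10 ± 0.26 (adjusted p = 0.00987). It did not pass without 24 h replicate 3 (-0.97, adjusted p = 0.061) or 48 h replicate 1 (-0.91, adjusted p = 0.098). MCM6 (-0.78), of the replicative helicase, and RFC4 (-0.69), of the clamp loader, fell as well, the other 2 of 45 G1/S and replication genes to pass. Of those 45, 39 had a negative difference, with a median of -0.32. WEE1, the kinase that holds back mitosis, and CCND1, the growth-factor-driven G1 cyclin, fell by 1.20 (adjusted p = 2.51e-05) and 0.71 (adjusted p = 0.0117), WEE1 being chosen after its values were seen and reaching -0.98 without 48 h replicate 1. For CCND1 another probe set gave 0.08. MKI67 (0.18, adjusted p = 0.841), CDK1 (-0.52, adjusted p = 0.208) and MCM2 (-0.32, adjusted p = 0.589) had overlapping groups.

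Sterol synthesis genes rose. Of 18 tested, 9 passed the test higher (2 of them called) and 0 lower, 15 had a positive difference, and the median was 0.62 against -0.022 for all genes. INSIG1, which holds the sterol-sensing machinery in the ER, read 721.4, 797.9 and 1450 at 24 h and 2542, 2178 and 3771 at 48 h, with no overlap. The difference was 1.53 ± 0.18 (adjusted p = 5.18e-07). With only the 24 h and 48 h arrays in the fit, a different probe set of INSIG1 was the brightest and stood for the gene. That probe set gave 0.64 and did not pass (adjusted p = 0.074), so the probe sets disagree in size. HMGCS1, the cytosolic enzyme that feeds the mevalonate pathway, read 809.5, 1330 and 1415 and then 2553, 2505 and 2984, a rise of 1.20 ± 0.15 (adjusted p = 1.19e-06) that was 0.95 without 24 h replicate 1. SQLE, squalene epoxidase, read 1286, 1387 and 1680 and then 3240, 2757 and 2714. Its rise of 1.00 ± 0.14 (adjusted p = 7.06e-06) stopped just short of 2-fold. The other members that rose, named after their values were seen, were ACAT2 (0.92), MSMO1 (0.84), IDI1 (0.76, open to cross-hybridization), NSDHL (0.74), MVK (0.68) and LSS (0.61), all of them enzymes of the pathway. These genes had not regained their 0 h means, which were 6356 for INSIG1 and 6461 for HMGCS1 against 2830 and 2680 at 48 h. In the comparison of 16 h with 0 h, which shares no array with this one, 11 of the 18 had been called lower, against 11.9% of all genes. Of 22 fatty acid and lipid synthesis genes, 4 rose and 0 fell: ACSL1 (1.10, called), which activates fatty acids, LPIN1 (0.78), ELOVL6 (0.64) and AGPAT2 (0.59). That count was 2 without 24 h replicate 1, where ACSL1 was at 0.88, or without 48 h replicate 1.

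ER chaperones rose by less than 2-fold. Of 34 genes in a list of ER stress and ATF4 targets, 9 passed the test higher, 0 lower and 0 were called, with a median of 0.16. HSPA5, the main ER chaperone BiP, read 4429, 4711 and 5073 at 24 h and 9968, 8874 and 8153 at 48 h, without overlap. The rise was 0.92 ± 0.16 (adjusted p = 0.000312). HERPUD1, of the degradation machinery of the ER, read 911.5, 798.5 and 1151 and then 1715, 1850 and 1764, a rise of 0.90 ± 0.15 (adjusted p = 0.000133). HSP90B1 (0.92, open to cross-hybridization), PDIA6 (0.83, likewise), CRELD2 (0.80), MANF (0.75), PDIA4 (0.71) and PDIA3 (0.60), which fold proteins or assist folding in the ER, and NUPR1 (0.58), a small stress-induced nuclear protein, made up the rest. These 9 were named after their values were seen. ATF4 (-0.18, adjusted p = 0.639) and DDIT3 (-0.35, adjusted p = 0.619), the transcription factors of the amino acid and stress response branch, did not pass, and their groups overlapped. Cytosolic chaperones (23 tested) and proteasome subunits (26 tested) had no member past the test in either direction.

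**Figure D4:**
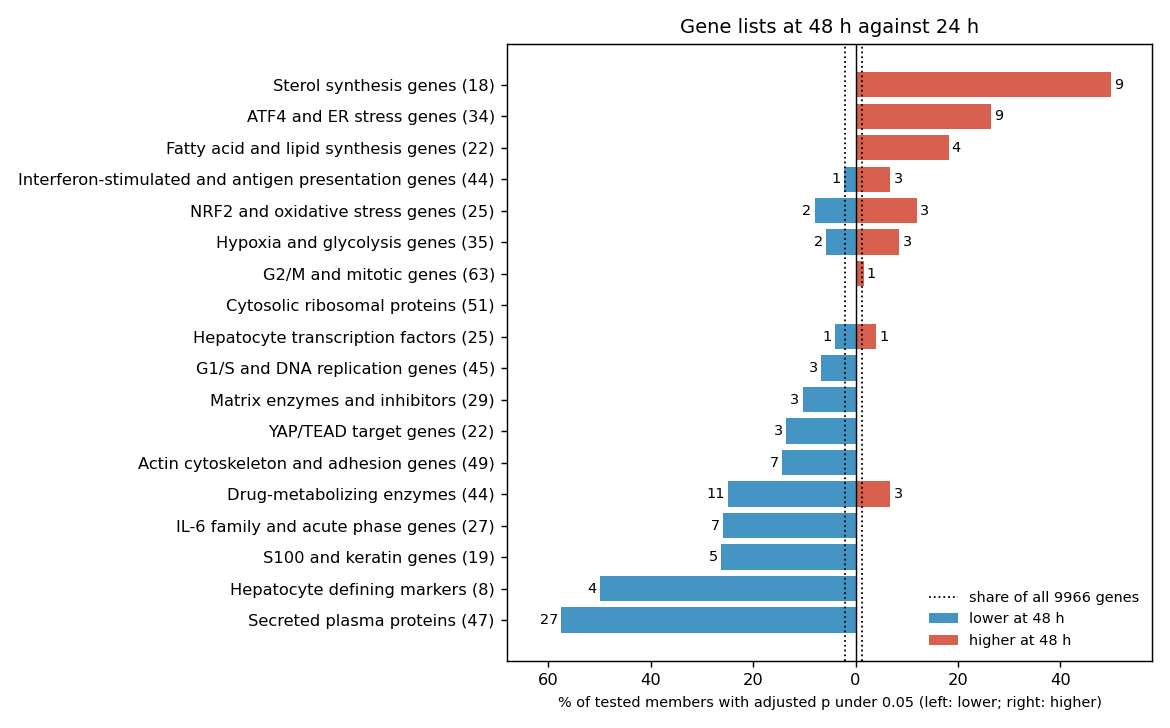
Percent of each list's tested members (number in brackets) that passed an adjusted p of 0.05, lower to the left and higher to the right, with member counts at the bar ends and dotted lines at the shares of all 9966 genes. Of the 48 lists, those shown had at least 3 members past this test in 1 direction. Lists of G2/M genes, hepatocyte transcription factors and cytosolic ribosomal proteins were added. Secreted plasma proteins reach furthest left, with 27 of 47, and sterol synthesis genes furthest right, with 9 of 18.

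The largest difference among called higher genes was that of AGR2. AGR2, a disulfide isomerase of mucus-secreting epithelia, read 261.2, 443.5 and 343.1 at 24 h and 1212, 2124 and 2215 at 48 h, from a mean of 7.40 at 0 h. The groups did not overlap, and the rise was 2.33 ± 0.50 (adjusted p = 0.00333), which did not pass with a pseudocount of 1 (2.38, adjusted p = 0.1). DDIT4, an inhibitor of the growth kinase mTORC1 that hypoxia and glucocorticoids induce, read 905.5, 737.9 and 848.6 and then 2802, 2629 and 2576. It rose by 1.67 ± 0.17 (adjusted p = 2e-08). TSC22D3, the glucocorticoid-induced leucine zipper protein, read 692.5, 565 and 706.4 and then 2123, 1758 and 1662, a rise of 1.47 ± 0.15 (adjusted p = 3.18e-08) with no overlap. Within 19 glucocorticoid response genes, TSC22D3 and KLF9 (0.78) rose, while HSD11B1 (-1.28), which regenerates cortisol from cortisone, and ANGPTL4 (-0.69) fell. Within 35 hypoxia and glycolysis genes, DDIT4, the mitophagy receptor BNIP3L (1.05) and the glycolytic enzyme GPI (0.53) rose, and NDRG1 (-0.67) and ANGPTL4 fell. BNIP3L was at 0.93 and 0.97 without replicate 3 of 24 h and 48 h, and its other probe set gave 0.37. LGALS1, a secreted galactose-binding lectin, read 7869, 3950 and 6701 at 24 h and 13890, 12360 and 14960 at 48 h, from 174.5 at 0 h, a rise of 1.21 ± 0.19 (adjusted p = 7.93e-05) that was 0.91 without 24 h replicate 2.

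Several further rises concerned dim or scattered signals. HLA-DMA, which helps load class II antigen-presenting molecules, read 48.9, 7.95 and 35.1 at 24 h and 138, 158.1 and 201.8 at 48 h (2.01 ± 0.43, adjusted p = 0.00313). PRR15L (2.13), NEFL (1.73), a neurofilament subunit, CD79B (1.73), a B cell receptor subunit, MRC1 (1.54), the macrophage mannose receptor, and OLFML3 (1.43) were called with adjusted p from 0.0185 to 0.0471. Each of these 5 lost its call in at least 4 of the 6 fits with 1 array left out, MRC1 and OLFML3 in all 6. CD79B read 9.53, 8.73 and 24.0 and then 77.9, 66.3 and 120, and MRC1 read 11.6, 17.9 and 9.39 and then 64.6, 66.1 and 86.0. The summed signal of 9 leukocyte markers stayed low, at 336 to 541 at 48 h. EFNA1 (1.33), an ephrin ligand, NSG1 (1.55, open to cross-hybridization) and PLXNC1 (1.27), a semaphorin receptor, rose from brighter signals. PLXNC1 stopped just short of 2-fold without 24 h replicate 1 (1.0, adjusted p = 0.024). NDRG2 (1.30) was called as well, but it did not pass without 24 h replicate 1 (0.67, adjusted p = 0.21), 48 h replicate 2 (adjusted p = 0.051) or 48 h replicate 3 (adjusted p = 0.088), and 1 of its other probe sets was negative. GSR (1.16), glutathione reductase, led 25 oxidative stress genes, of which PGD (0.84) and GCLC (0.61) also rose and HMOX1 (-0.92) and ABCC3 (-0.83) fell. That count of 3 rises was 1 without 24 h replicate 1 and 0 without 24 h replicate 2. NEU1 (1.03), lysosomal sialidase, was the 1 of 29 lysosome and autophagy genes to pass, which it did not without 24 h replicate 1 (0.80, adjusted p = 0.073).

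Several gene groups had few or no members past the test. Of 51 cytosolic ribosomal protein genes none passed the test, although 47 had a negative difference, with a median of -0.15. Of 42 respiratory chain subunits UQCRC2 (0.51) passed, and the median was 0.16. Metallothioneins (12 tested), clock genes (15) and junction genes (18) had no member past it. Of 48 lists in all, 26 had no called member, and 68 of the 119 called genes belonged to no list. VNN1 is one of those, an enzyme that releases cysteamine and belongs to liver and leukocytes. It read 1033, 1259 and 1167 at 24 h and 231.8, 274.1 and 289.1 at 48 h, a difference of -2.05 ± 0.14 (adjusted p = 5.68e-12), and its 0 h mean of 906.1 had been close to its 24 h level. CFHR4 (-1.89), a complement factor H relative, is another.

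The step was set beside the comparison of 16 h with 0 h, which shares no array with it and in which 1188 genes (11.9%) were called lower and 916 (9.19%) higher. Of the 87 genes called lower at 48 h, 44 (50.6%) had been called lower at 16 h, 20 (23%) higher and 23 neither. These 44 are 3.7% of the 1188, and the 20 are 2.18% of the 916. Of the 32 called higher at 48 h, 14 (43.8%) had been called lower at 16 h, 2 (6.25%) higher and 16 neither, and the 14 are 1.18% of the 1188. The second day therefore held falls in genes already reduced and in genes raised before. Of its rises, 43.8% were in genes reduced before, against 11.9% of all genes, and 6.25% in genes raised before, against 9.19%. CYP2E1, F12 and KNG1 belong to the 44, with 16 h means of 2256, 2441 and 6229, and MMP3, IL1RL1 and TNC to the 20. INSIG1, HMGCS1 and TSC22D3 belong to the 14, and AGR2 and LGALS1 are the 2 higher in both.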

How the data were processed

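RNA of the 6 samples was measured on a 1-colour Affymetrix human array. The deposited values are linear intensity signals made by the authors with MAS5, per the submitters' processing notes. Its version is not given in the sources used here. The 2% trimmed mean was near 500.2 on these arrays, so they had been scaled to a common level. Detection calls were not analysed here, and the number of arrays limits the precision.

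Of 22215 probe sets that are not controls, 19065 had 1 gene symbol in the platform annotation, 1043 several and 2107 none. Symbols were looked up in RefSeq for 19053, and 0 changed. Probe sets with several symbols or none named no gene, and 2121 of them passed the signal filter given below. In a fit of all 17122 probe sets that passed it, 6 of the 2121 were called higher and 31 lower. Signals entered as log2(signal + 18), 18 being the 20th percentile of all signals. A probe set needed 3 of 24 arrays above their own 40th percentile, and each gene kept its brightest. Names ending in _x_at mark possible cross-hybridization. limma 3.58.1 in R 4.3.3 fitted all 24 arrays (lmFit, eBayes with trend, 16 residual degrees of freedom) without a replicate block, and each p is two-sided. The script was tested on simulated data. Figures used matplotlib 3.10.9.

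The comparison, lists and motifs were chosen with earlier results of these data known, so no list's direction is independent evidence. Genes named are the 15 largest called rises and falls with groups apart, up to 4 called members of each list, members of lists with 3 or more calls one way, and a fixed set, 3 of which were not analysed here. Others are marked as chosen after their values were seen, as are list members outside this rule. Of the genes meeting it, some are not described. Over the genes tested, same-numbered arrays did not deviate together (correlations 0.02, 0.028 and -0.002). Such correlations, which include many dim genes, cannot show whether the numbers mark shared cultures, and the labels do not say. No 2 arrays were identical. Alternatives were other pseudocounts, normalizations, filters and probe-set rules, arrays left out and the block.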

Additional observations from a re-analysis of the deposited data

How the results depend on the processing

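The 32 higher and 87 lower calls became 31 and 93 with a pseudocount of 1, 25 and 63 with one of 73.8, 28 and 78 after quantile normalization, and 36 and 77 after median centring. They were 32 and 87 with no filter, 29 and 89 with a stricter one, 33 and 78 when probe sets of 1 gene were averaged, and 30 and 82 with only the 24 h and 48 h arrays. Counting every probe set gave 48 and 118, and the adjusted p alone 135 and 209. Without each array in turn the higher count ran from 26 to 52, the highest without 24 h replicate 3, and the lower count from 80 to 107. Leaving 0 h replicate 2, the array with the ACTB ratio of 6.91, out of the fit gave 35 and 89. This setting was chosen after seeing the data. With the replicate number as a block, the counts were 31 and 88. In all 16 settings with 1 value a gene, 7 higher and 43 lower genes were called each time.

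Of 71 called genes compared, 34 lost the call in at least 1 setting and none reversed. Genes that were not called and reversed were VIM (0.0 with a pseudocount of 1, 0.09 after quantile normalization, 0.03 after median centring, -0.31 to 0.19 with arrays left out), CDKN1A (0.04 after median centring, -0.1 to 0.05), COL1A1 (0.0 with a pseudocount of 1, -0.33 to 0.05) and S100A2 (0.12 after quantile normalization). With arrays left out, MYC ran from -0.08 to 0.2, FOS from -0.9 to 0.01, CEBPA from -0.01 to 0.41, KRT19 from -0.04 to 0.24 and SNAI2 from -0.03 to 0.32. The cause of these shifts was not tested. Signals near the added 18 units limit the fold change of dim genes.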
